A study of Mus musculus with 24 samples.

Results

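NRF2 and antioxidant genes are described here as a group of 38 mouse genes, of 55421 genes with an Ensembl identifier in the count table. The genes were chosen by function, with no measured value in the rule, though earlier results of these data were known. They fall into 10 roles: 3 regulators of NRF2, 4 genes of glutathione synthesis and recycling, 3 glutathione peroxidases, 7 glutathione transferases or conjugate exporters, 5 genes of the thioredoxin and peroxiredoxin system, 3 superoxide dismutases, 4 enzymes linked to NADPH supply, 4 genes of quinone and carbonyl reduction together with Osgin1, 3 genes of heme breakdown and iron storage, and 2 metallothioneins. Each of the 38 genes passed the filter on low counts, as did 18046 genes in all, and the lowest count of a member in any library was 15.

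NRF2, encoded by Nfe2l2, is a transcription factor held at low levels by KEAP1, which targets it for degradation. Oxidants and electrophiles act on KEAP1, NRF2 then accumulates and binds antioxidant response elements, and genes of glutathione and thioredoxin metabolism, NADPH supply, drug reduction and iron handling are transcribed. NRF2 is regulated mainly at the protein level, so the mRNA of Nfe2l2 does not report its activity. The lung is exposed to inhaled oxygen and pollutants, and alveolar epithelial cells rely on these enzymes.

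AEC2s, the surfactant-making progenitors of the alveolus, were isolated from Krt8+/+ mice (wild type, WT in the labels) and from Krt8-/- mice (KO in the labels, lacking keratin 8 in every cell of the animal) and were cultured in 2D on a stiff laminin-coated substrate, where AEC2s are known to lose surfactant genes and enter a transitional state. Bulk RNA was sequenced on day 0, 1, 3 and 7, with no other treatment, which gave 8 groups of 3 libraries (24 in all). The 3 libraries of a group carry 3 batch dates and 3 biological replicate numbers in the labels, and each batch holds both genotypes on every day. What was shared within a batch is not stated, and batches are numbered by date. Age, strain background, sex and the number of animals in a batch are not given in the labels, so the p-values measure the spread between batches.

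Libraries held 10184439 to 19483386 counts. In the Krt8+/+ groups Krt8 was at 485 to 552 CPM (counts scaled to library size) on day 0 and at 2956 to 5092 CPM on day 7. The 12 Krt8-/- libraries held 21.2 to 47.5 CPM across the days, so the targeted gene followed the labels. The summed level of 8 AEC2 markers was 227500 to 304600 CPM on day 0 and 171 to 259 CPM on day 7. On day 1 batch 2 stood apart, with 15050 CPM (Krt8+/+) and 14170 CPM (Krt8-/-) of AEC2 markers against 62890 to 87720 CPM in the other 4 libraries. Airway cell markers also differed between genotypes on day 0. The 8 club and ciliated cell markers summed to 5934 to 12110 CPM in Krt8+/+ and to 14410 to 19760 CPM in Krt8-/- libraries. Most of this sum was Scgb1a1, with means of 5980 CPM (Krt8+/+) and 12950 CPM (Krt8-/-). The ciliated cell markers Foxj1, Tppp3, Ccdc153 and Tmem212 differed less (67.2, 336.5, 42.4 and 45.3 CPM against 78.0, 392.9, 48.6 and 51.9 CPM). Macrophage markers were highest in batch 1 on each day of both genotypes, fibroblast and pericyte markers reached 3178 CPM in Krt8-/- batch 3 on day 7, and endothelial, lymphocyte and neutrophil markers each summed to at most 34.8 CPM. In batch 1 the genotypes differed in sex-linked transcripts, since Y-linked genes summed to at most 0.441 CPM in Krt8+/+ and to at least 173 CPM in Krt8-/-. The part of these differences in the results was not tested. In bulk RNA, fewer cells of a type and less RNA per cell cannot be told apart.

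CPM values are the deposited counts divided by the TMM-scaled library size and multiplied by 1e6, and log2 changes, standard errors (SE) and adjusted p-values are from edgeR's quasi-likelihood test over 18046 genes with Benjamini-Hochberg adjustment. A gene was called higher or lower at an adjusted p under 0.05.

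Of a library's counts the members carried between 1.02% and 1.28% on day 0 and between 3.62% and 4.47% on day 1. The share was between 1.88% and 2.304% on day 3 and between 1.44% and 2.17% on day 7. All 12 libraries of days 3 and 7 lay above day 0 and below day 1. This share weighs abundant genes such as Ftl1 and Fth1 most. It is taken on total counts, of which the surfactant gene Sftpc held 11.9% to 16.9% on day 0. In Krt8+/+ AECs, 25 of 38 members were higher on day 1 than on day 0 (26.2% of all genes tested were called higher) and 7 were lower (28.5% of all genes). Their median log2 change was 1.57, against 0 over all genes. On day 3, 19 members were higher than on day 0 (26.1% of all genes) and 14 were lower (27.8%), with a median of 0.46. On day 7, 18 were higher (28.6% of all genes) and 12 were lower (30.2%), with a median of 0.26, which was 0.15 without batch 1. The comparisons of days 1, 3 and 7 share their day 0 libraries.

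The rise was followed by a partial return. From day 1 to day 3, 28 of 38 members were lower (11.9% of all genes were called lower) and 1, G6pdx, was higher (14.4% of all genes), and the median log2 change was -1.01 against -0.05 over all genes. Of the 25 members that were higher on day 1, 21 were lower on day 3 than on day 1, while Gpx2, Gsto1, Abcc1 and Nqo1 were not called between these days. With 1 batch left out, 21 to 23 members were lower from day 1 to day 3, and 14.1% to 17.1% of all genes were called in either direction, in place of 26.3%. Of the same 25, 18 were still called higher on day 7 than on day 0. Gsr, Gstp1, Prdx6, Pgd and Fth1 were not called, and Gsta3 and Gsta4 were lower. The 25 were picked for high day 1 libraries, which the comparison of days 1 and 3 reuses, so a fall is favoured. These courses were not counted over all genes, so the counts among the 25 are a description. From day 3 to day 7 6 members were lower (3.47% of all genes) and 1, Gpx1, was higher (3.11%). With 1 batch left out 3 members were called between these days, 2 or 3 of them lower, and the share of all genes called fell alike, from 6.58% to 2.97%, 1.75% and 3.17% without batches 1, 2 and 3. The fall of Slc7a11 (log2 change -0.68, adjusted p = 0.0389) was not called without any 1 batch (adjusted p = 0.132, 0.272 and 0.141).

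**Figure D1:**
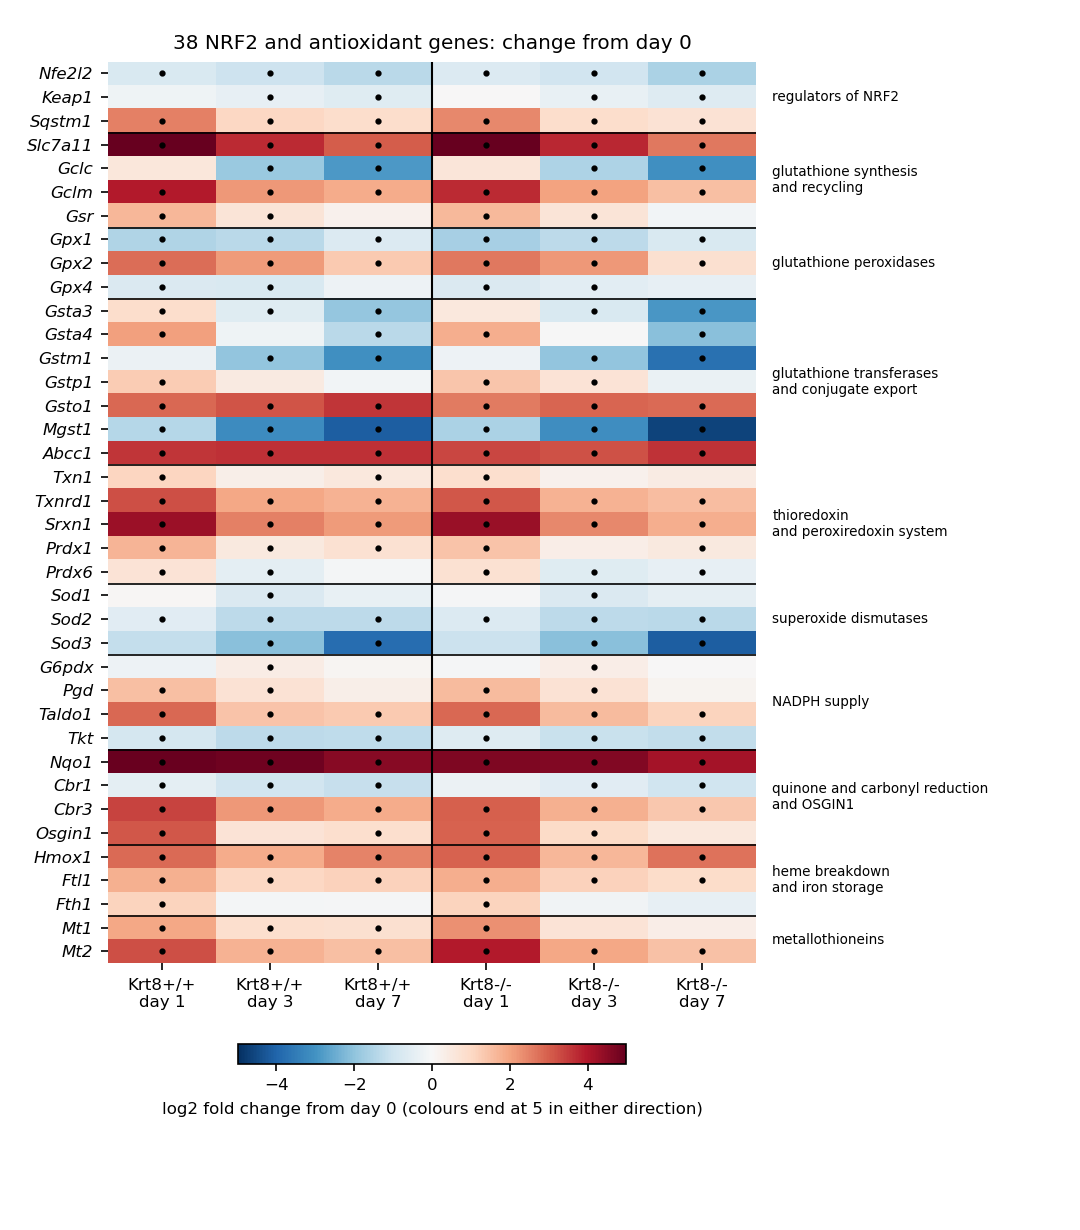
Log2 fold change from day 0 of each of the 38 genes (rows, grouped by role) on days 1, 3 and 7 in Krt8+/+ and Krt8-/- AECs (columns, n = 3 libraries a group). Dots mark an adjusted p under 0.05, and colours end at 5 although Slc7a11 reached 6.68 on day 1; most rows are reddest on day 1, whereas Mgst1, Sod2, Tkt and Nfe2l2 are blue on every day of both genotypes.

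The regulators did not move together. Nfe2l2 was at 464, 471 and 462 CPM in the 3 Krt8+/+ libraries of day 0, at 275, 249 and 304 CPM on day 1, at 202, 274 and 205 CPM on day 3, and at 193, 181 and 171 CPM on day 7. Every library of a later day lay below every library of day 0. The log2 change was -0.76 (SE 0.14, adjusted p = 0.000102) on day 1 and -1.36 (SE 0.14, adjusted p = 5.19e-08) on day 7. On total counts alone the day 1 change was -0.29, still called. Keap1 was at 68.7, 72.8 and 72.6 CPM on day 0, at 62.4, 56.6 and 64.0 CPM on day 1, at 47.8, 60.1 and 54.0 CPM on day 3, and at 45.2, 46.3 and 51.0 CPM on day 7. Its groups of day 1 and day 0 did not overlap, but the log2 change of -0.23 (SE 0.11) did not pass the test (adjusted p = 0.0818). Keap1 was lower on day 7 (log2 change -0.59, SE 0.11, adjusted p = 9.31e-05), where total counts alone gave -0.13 and no call, and on day 3 (-0.40), where total counts alone turned the change to 0.20 and the call was lost without batch 1 (adjusted p = 0.0697).

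Sqstm1 encodes p62, an autophagy adaptor that can sequester KEAP1. It was at 488, 679 and 593 CPM on day 0, at 3802, 2592 and 3619 CPM on day 1, at 984, 1192 and 1384 CPM on day 3, and at 1106, 1088 and 1071 CPM on day 7. All 9 later libraries were above the day 0 libraries, and day 1 was above days 3 and 7. The log2 change was 2.51 (SE 0.18, adjusted p = 9.71e-10) on day 1 and 0.89 (SE 0.17, adjusted p = 0.000133) on day 7.

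Glutathione synthesis opened with the largest change of any member. Slc7a11, the cystine importer that feeds glutathione synthesis, was at 2.35, 3.68 and 3.76 CPM on day 0, at 309, 240 and 435 CPM on day 1, at 39.6, 44.5 and 41.7 CPM on day 3, and at 30.1, 23.9 and 24.3 CPM on day 7. The groups were ordered with no overlap, with day 1 highest and day 0 lowest. The mean on day 1 was 100.4 times that of day 0 (log2 change 6.68, SE 0.26, adjusted p = 1.85e-13), and the mean on day 7 was still 7.99 times that of day 0 (log2 change 3.03, SE 0.23). A lincRNA, AC157548.1, is 95.4% identical to Slc7a11 over 373 bases and held 8.53% as many counts. With these counts added to those of Slc7a11 the day 1 change was 5.30 and the day 7 change 2.03.

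Gclm and Gclc encode the modifier and the catalytic subunit of glutamate-cysteine ligase, the rate-limiting enzyme of glutathione synthesis, and their courses differed. Gclm had a mean of 61.5 ± 5.62 CPM (SD, n = 3) on day 0, 949.9 ± 189 CPM on day 1 and 221 ± 21.9 CPM on day 7, and was called higher on each of the 3 days (log2 changes 3.95, 2.16 and 1.84). The gene Gm17494 overlaps 4.71% of the exonic bases of Gclm on the opposite strand and held 30.6% as many counts. On the same strand Gm6061 overlaps 3.88% of these bases and held 5.33% as many counts. The strand used in counting is not given in the sources used here. Gclc had a mean of 899 ± 99.1 CPM on day 0 and 1340 ± 507 CPM on day 1 (log2 change 0.58, SE 0.26, adjusted p = 0.0694). From day 0 to day 1 it went from 1014, 846.5 and 838 CPM to 1712, 762 and 1544 CPM in batch order. It then had a mean of 249.9 ± 30.4 CPM on day 3 and 124 ± 18.6 CPM on day 7. It was lower than on day 0 on days 3 and 7 (log2 changes -1.85 and -2.86). Gsr, glutathione reductase, was higher on day 1 (135 to 426 CPM, log2 change 1.65) and on day 3 (0.63, lost without batch 2, adjusted p = 0.0507) but was not called on day 7.

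The glutathione peroxidases reduce hydrogen and lipid peroxides with glutathione, and they split. Gpx2 was at 25.7, 43.0 and 44.7 CPM on day 0, at 158, 368 and 248 CPM on day 1, at 123, 156 and 215 CPM on day 3, and at 114, 106 and 59.7 CPM on day 7. No later library reached down to the day 0 range. Gpx2 was called higher on day 1 (log2 change 2.77, SE 0.35) and on day 7 (log2 change 1.31, SE 0.34, adjusted p = 0.00224). Gpx1 fell by 1.49 on the log2 scale on day 1 (670 to 239 CPM) and was at 413 CPM on day 7, called lower than on day 0 on each day, though not on day 7 on total counts alone (log2 change -0.24). Gpx4, which protects membrane lipids, was lower on days 1 and 3 (log2 changes -0.72 and -0.76), and its day 1 call was lost without batch 3 (log2 change -0.59, adjusted p = 0.0537) and on total counts alone (-0.22), and its day 3 call without batch 2 (adjusted p = 0.0702) and on total counts alone (-0.14, adjusted p = 0.574). Near-identical copies of Gpx4 held 23.6% as many counts as Gpx4 itself.

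Among the glutathione transferases, which conjugate glutathione to electrophiles, 5 of the 7 members with the exporter rose on day 1 and 2 were higher and 4 lower on day 7. Mgst1, a membrane-bound transferase, fell the most. It was at 584, 848 and 884 CPM on day 0, at 272, 287 and 301 CPM on day 1, at 90.2, 83.5 and 88.7 CPM on day 3, and at 60.9, 36.6 and 34.6 CPM on day 7. The 4 days did not overlap. The log2 change was -1.43 (SE 0.22, adjusted p = 1.66e-05) on day 1 and -4.13 (SE 0.24, adjusted p = 4.36e-11) on day 7. Abcc1, the transporter MRP1 that exports glutathione conjugates, moved the other way, from 16.4, 13.8 and 7.97 CPM on day 0 to 226, 126 and 104 CPM on day 1, 194, 172 and 114 CPM on day 3, and 136, 141 and 203 CPM on day 7. Days 1, 3 and 7 overlapped with each other and each lay above day 0 (log2 change 3.57, SE 0.35, adjusted p = 6.85e-08 on day 1).

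Gsto1, an omega-class transferase, rose on day 1 (38.02 to 279.6 CPM) and was at 454 CPM on day 7 (log2 change 3.58, SE 0.26, adjusted p = 7.17e-10). Gsta4, which conjugates lipid aldehydes, was at 84.3, 121 and 117 CPM on day 0, at 397, 577 and 348 CPM on day 1, at 104, 83.9 and 87.3 CPM on day 3, and at 31.9, 39.0 and 54.4 CPM on day 7. Day 1 lay above and day 7 below every other group (log2 changes from day 0 of 2.04 and -1.36, both called). Gsta3 showed the same calls on days 1 and 7 (log2 changes 0.88 and -1.94), and its day 1 call was lost without batch 2 (adjusted p = 0.0558), while its day 3 call (-0.62) was lost without any 1 batch (adjusted p 0.0609 to 0.231). Gstm1 was not called on day 1 and was lower on day 7 (486 to 58.0 CPM, log2 change -3.07). Gstp1 was called higher on day 1 only, by 1.28.

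In the thioredoxin and peroxiredoxin system, which reduces oxidized protein thiols and peroxides, each of the 5 members was higher on day 1. Srxn1, sulfiredoxin, which reactivates overoxidized peroxiredoxins, was at 30.6, 41.1 and 46.2 CPM on day 0, at 743, 655 and 859 CPM on day 1, at 219, 199.6 and 264 CPM on day 3, and at 151, 157 and 205 CPM on day 7. All 9 later libraries lay above day 0, and day 1 above the other days. Its log2 change was 4.26 (SE 0.19, adjusted p = 2.19e-12) on day 1 and 2.13 (SE 0.18, adjusted p = 3.46e-09) on day 7. Txnrd1, the cytosolic thioredoxin reductase, went from 217 ± 3.68 CPM to 2026 ± 739 CPM on day 1 (log2 change 3.22) and was at 723 ± 126 CPM on day 7 (log2 change 1.74). Prdx1 was called higher on the 3 days, at 1155, 3733, 1616 and 1933 CPM in day order, although its day 3 call was lost without batch 1 (log2 change 0.24, adjusted p = 0.339) and without batch 3 (0.54, adjusted p = 0.0968). Txn1, thioredoxin, was higher on day 1 (1.08), and its day 7 call (0.53) was lost without any 1 batch (adjusted p 0.0582 to 0.127). Prdx6, which also has phospholipase activity in surfactant turnover, was higher on day 1 (log2 change 0.67) and lower on day 3 (-0.49), where total counts alone gave 0.13 and the call was lost without batch 2 (adjusted p = 0.292).

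Superoxide dismutases convert superoxide to hydrogen peroxide, and none of the 3 members rose. Sod2, the mitochondrial enzyme, was at 159.5, 208 and 182 CPM on day 0, at 126, 134 and 107 CPM on day 1, at 78.2, 73.3 and 72.4 CPM on day 3, and at 75.8, 68.7 and 75.5 CPM on day 7. Days 1, 3 and 7 lay below day 0, and the log2 change was -0.58 (SE 0.11, adjusted p = 0.000143) on day 1, with no call on total counts alone (-0.10) or when only these 2 groups were fitted (-0.48, adjusted p = 0.0524), and -1.32 (SE 0.11, adjusted p = 3.71e-09) on day 7. Sod3, the extracellular enzyme, was at 80.9, 23.5 and 8.41 CPM on day 0, at 37.97, 6.10 and 6.04 CPM on day 1, at 13.6, 8.88 and 4.37 CPM on day 3, and at 4.70, 1.24 and 2.12 CPM on day 7. Batch 1 was highest on each of the 4 days, and day 7 lay below days 0 and 1 and overlapped with day 3. Sod3 was called lower on day 7 (log2 change -3.80, SE 0.88, adjusted p = 0.000922) and not on day 1 (adjusted p = 0.205), and its day 3 call (-2.08) was lost without batch 1 (adjusted p = 0.2) and without batch 2 (adjusted p = 0.125). Sod1, the cytosolic enzyme, was lower on day 3 only (log2 change -0.73), a call lost without batch 2 (adjusted p = 0.118) and on total counts alone (-0.12). In the same libraries the 8 fibroblast and pericyte markers summed, in batch order, to 994, 507 and 296 CPM on day 0, to 261, 164 and 143 CPM on day 1, to 1790, 1330 and 1005 CPM on day 3, and to 899, 1002 and 1911 CPM on day 7. Batch 1 was highest on days 0, 1 and 3, as for Sod3, and lowest on day 7. Within the list the mean of Dcn went from 211 to 18.5 CPM and that of Col3a1 from 236 to 80.3 CPM between days 0 and 7, while Col1a1 went from 53.9 to 522 CPM. The part of these cells in the values of Sod3 was not tested.

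NADPH, which glutathione and thioredoxin reductases consume, is supplied in part by the pentose phosphate pathway. Taldo1, transaldolase, was at 142, 184 and 189 CPM on day 0, at 1030, 1372 and 1363 CPM on day 1, at 437, 439.7 and 512 CPM on day 3, and at 442, 429.9 and 405 CPM on day 7. Every later library was above the day 0 libraries (log2 change 2.87, SE 0.15, adjusted p = 1.84e-11 on day 1 and 1.31, SE 0.14, adjusted p = 1.66e-07 on day 7). Pgd was higher on days 1 and 3 (294 to 825 and 479 CPM) and not called on day 7 (adjusted p = 0.0517). G6pdx, which opens the pathway, was not called on day 1 (log2 change -0.26) or day 7 and was 0.38 higher on day 3, a call lost without batch 1 (adjusted p = 0.063) and without batch 3 (0.32, adjusted p = 0.153). Ikbkg overlaps 13.6% of the exonic bases of G6pdx on the opposite strand and held 108.9% as many counts. Tkt, transketolase, was lower on each day, at 355, 194, 144 and 146 CPM.

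Nqo1, the quinone reductase used as a standard readout of NRF2 activity, was at 3.75, 3.79 and 5.87 CPM on day 0, at 131, 173 and 103 CPM on day 1, at 143, 112 and 133 CPM on day 3, and at 62.9, 97.9 and 153 CPM on day 7. The later days overlapped with each other and lay far above day 0. The mean was 30.3 times that of day 0 on day 1 (log2 change 4.93, SE 0.48, adjusted p = 5.79e-08) and 23.4 times on day 7 (log2 change 4.56, SE 0.48, adjusted p = 7.8e-08). Cbr3, a carbonyl reductase, was called higher on each day (5.80, 59.5, 26.1 and 20.8 CPM), and its paralog Cbr1 lower on each day (67.5, 48.0, 34.6 and 30.7 CPM), although the day 1 call of Cbr1 was lost without batch 2 (log2 change -0.35, adjusted p = 0.129), on total counts alone (-0.01) and when only these 2 groups were fitted (-0.39, adjusted p = 0.0868). Osgin1, an oxidative stress-induced growth inhibitor, was at 50.3 ± 8.95 CPM on day 0. It was at 435 ± 215 CPM on day 1 (log2 change 3.11), lowest in batch 2 (202 CPM, and 244 CPM in Krt8-/-). Its call on day 7 (log2 change 0.82, adjusted p = 0.0492) was lost with batch as a block (adjusted p = 0.0578), without batch 1 (adjusted p = 0.181) and without batch 3 (adjusted p = 0.0643).

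Hmox1, heme oxygenase 1, which releases iron from heme, was at 82.3, 100.4 and 97.0 CPM on day 0, at 749, 459.7 and 785 CPM on day 1, at 415, 295 and 289 CPM on day 3, and at 475, 421 and 661 CPM on day 7. Each later library lay above day 0, and day 3 lay below days 1 and 7. The log2 change was 2.84 (SE 0.33, adjusted p = 6.3e-07) on day 1 and 2.48 (SE 0.33, adjusted p = 1.81e-06) on day 7, while the step from day 1 to day 3 (-0.999, adjusted p = 0.0229) was lost without batch 1 (-1.09, adjusted p = 0.107) and without batch 3 (-0.77, adjusted p = 0.106). Macrophages also express Hmox1, and the 10 macrophage markers summed to 644, 376 and 96.7 CPM in the 3 Krt8+/+ libraries of day 1. They summed to 369, 124 and 49.9 CPM on day 3, where Hmox1 ran in the same order of batches, and to 401, 116 and 31.2 CPM on day 7, while Hmox1 was highest in batch 3 on days 1 and 7. Their part in the values of Hmox1 was not tested. Ftl1 and Fth1 encode the light and heavy chains of ferritin, the iron store, and per kilobase of exon Ftl1 had the highest level of any member on day 0 (2075 CPM per kb) and day 1 (7162 CPM per kb), followed by Fth1 (702 and 1510 CPM per kb). Ftl1 was higher on each day (2781, 9597, 5745 and 6100 CPM), and near-identical copies held 18.1% as many counts. Fth1 was higher on day 1 (log2 change 1.11) and was not called on days 3 and 7.

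Metallothioneins bind zinc and copper and scavenge oxidants, and are transcribed through metal response elements by MTF1. Mt2 was at 3.88, 9.10 and 2.44 CPM on day 0, at 66.5, 51.6 and 26.6 CPM on day 1, at 14.6, 18.9 and 17.0 CPM on day 3, and at 19.3, 16.9 and 6.89 CPM on day 7. Days 1 and 3 lay above day 0, and day 7 overlapped with it. The log2 change was 3.24 (SE 0.49, adjusted p = 1.44e-05) on day 1 and 1.49 (SE 0.47, adjusted p = 0.0104) on day 7, the latter lost without batch 1 (1.04, adjusted p = 0.145). Mt1 was called higher on each day (log2 change 1.92 on day 1), but its day 3 call was lost without batches 1 or 3 (adjusted p = 0.146 and 0.0808) and its day 7 call without batch 1 (0.32, adjusted p = 0.482). On the opposite strand, Gm45774 overlaps 73.5% of the exonic bases of Mt2 and held 1.82% as many counts.

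**Figure D2:**
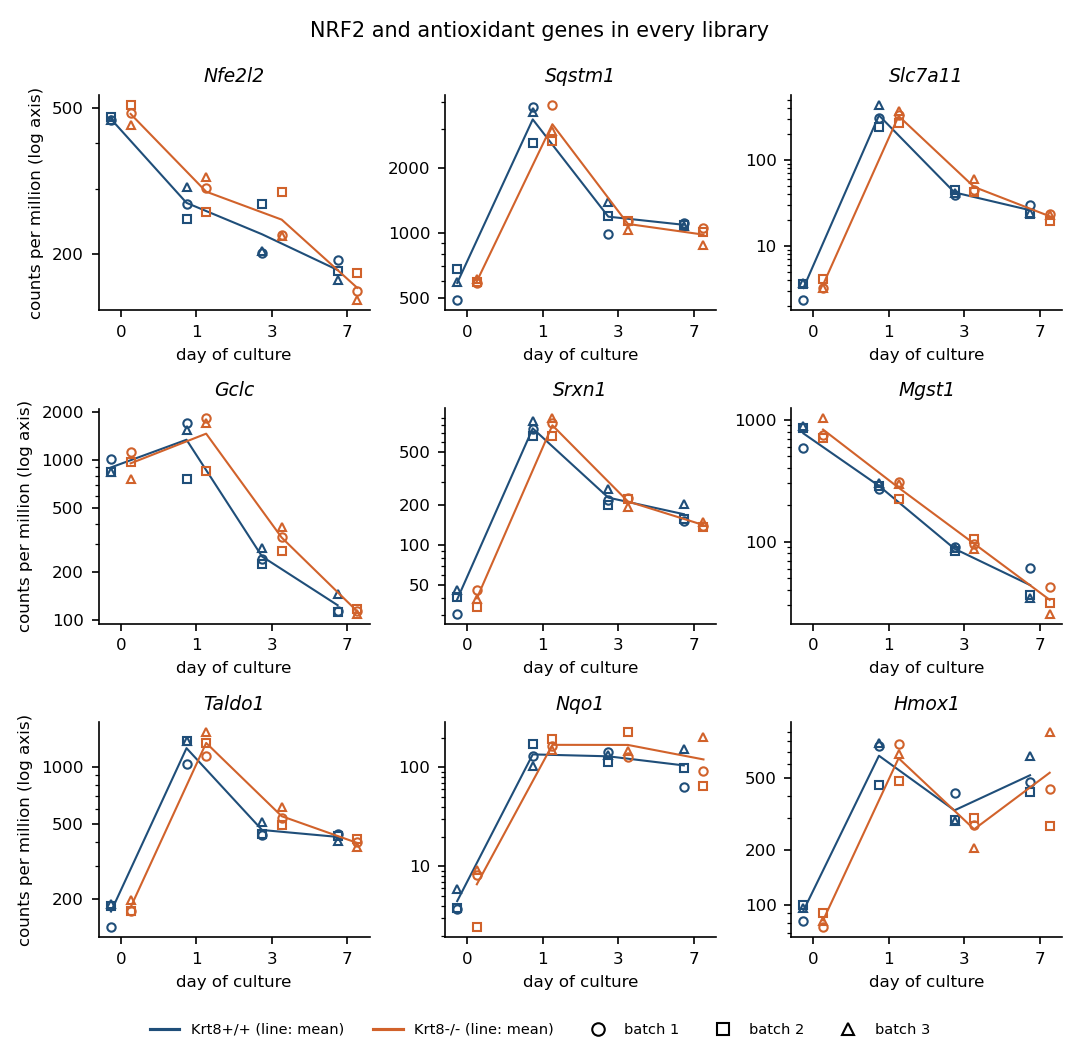
CPM (log axis) of 9 of the genes against day of culture, with 1 symbol a library (symbol shape: batch), blue for Krt8+/+ and orange for Krt8-/-, and lines through the group means (n = 3). Slc7a11, Srxn1, Taldo1 and Sqstm1 peak on day 1, and Nqo1 and Hmox1 stay above day 0. Gclc on day 1 is higher than on day 0 in batches 1 and 3 and lower in batch 2, and then falls. Mgst1 and Nfe2l2 decline, and the symbols of the genotypes mix on most days.

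Each change from day 0 depends on the scaling of the libraries. Sftpc, the surfactant protein C gene, alone held 11.9% to 16.9% of the counts on day 0 and at most 0.0515% on days 3 and 7. TMM scaling placed the median change of all genes at 0, whereas total counts alone moved it by 0.46, 0.60 and 0.45 log2 units on days 1, 3 and 7 in Krt8+/+. The share of called genes that were higher then became 69.8%, 74.7% and 66.3%, in place of 47.9%, 48.4% and 48.6%. Members called higher and lower numbered 27 and 4, 22 and 8, and 22 and 10. Of the 18046 genes tested, 7184, 8201 and 7507 were then called higher, in place of 4730, 4711 and 5158. In the other direction 3115, 2784 and 3810 were called lower, in place of 5144, 5025 and 5453. From day 1 to day 3 the shift was 0.13 (69% of calls higher, in place of 54.9%). In that step 1 member was higher (3388 of all genes) and 27 were lower (1524 of all genes). From day 3 to day 7 the shift was -0.15 (24.6% of calls higher, in place of 47.3%). In this step 1 member was higher (334 of all genes) and 11 were lower (1024 of all genes). In Krt8-/- the shift against day 0 was 0.48, 0.56 and 0.43, with 71.8%, 73.8% and 65.7% of calls higher in place of 46.9%, 48.8% and 48.9%. Members higher and lower numbered 28 and 2, 22 and 7, and 20 and 10. Of all genes 7058, 7768 and 7332 were called higher and 2772, 2756 and 3821 lower.

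Promoter sequence was examined because NRF2 acts through antioxidant response elements. RefSeq (GRCm38.p6) gave windows of 300 bases, from 250 before to 50 after the start, for 31 of the 38 members, and none was given for Gclc, Gsr, Gsta4, Abcc1, Prdx6, Sod3 and Hmox1. The core letters TGACNNNGC, on either strand and in at least 1 window, were found in 11 of 31 members (35.5%) and in 14.0% of the 27025 genes with a window. They were in 7 of 20 members that were higher on day 1, in 2 of 7 that were lower and in 2 of 4 that were not called. The promoters of 3 members that were higher on day 1 (Gclm, Prdx1 and Txnrd1) and of Nfe2l2, which was lower, are shown 5′ to 3′ as stretches of these windows that hold no annotated exon base of the same strand, with the matching letters in capitals. In Gclm, Prdx1 and Txnrd1 the match lies on the opposite strand, so it ends in GTCA. The stretch of Txnrd1 lies inside the annotated gene (82833951 to 82897712), before an internal start and not before the first base of the gene.
Gclm (chr3:122245387-122245556, plus strand): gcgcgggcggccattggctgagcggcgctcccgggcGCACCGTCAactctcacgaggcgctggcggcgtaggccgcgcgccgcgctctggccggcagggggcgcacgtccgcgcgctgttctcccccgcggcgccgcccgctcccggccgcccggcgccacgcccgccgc
Prdx1 (chr4:116685429-116685543, plus strand): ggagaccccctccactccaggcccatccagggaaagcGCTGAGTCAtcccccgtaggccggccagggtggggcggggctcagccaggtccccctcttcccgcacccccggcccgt
Txnrd1 (chr10:82859076-82859178, plus strand): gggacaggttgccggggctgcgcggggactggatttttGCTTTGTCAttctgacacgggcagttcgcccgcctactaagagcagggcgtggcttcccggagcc
Nfe2l2 (chr2:75704664-75704913, minus strand): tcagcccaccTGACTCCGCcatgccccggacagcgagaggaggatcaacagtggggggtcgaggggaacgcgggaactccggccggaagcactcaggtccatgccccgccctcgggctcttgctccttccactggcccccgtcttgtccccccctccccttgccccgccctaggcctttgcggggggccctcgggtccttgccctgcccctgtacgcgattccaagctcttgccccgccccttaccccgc
A match is a description of the letters and not a binding site, and the letters were present in a member that fell as well as in those that rose.

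For the metallothioneins the letters TGCACNC and TGCGCNC of the metal response element were searched on either strand. In Gclm 1 such match overlapped the antioxidant letters. They were in 7 of 31 members (22.6%) and in 28.2% of all genes. Mt2 had 3 matches before its start and 1 after it, and Mt1 had 1 before and 2 after, and those before the start are in capitals.
Mt1 (chr8:94178919-94179081, plus strand): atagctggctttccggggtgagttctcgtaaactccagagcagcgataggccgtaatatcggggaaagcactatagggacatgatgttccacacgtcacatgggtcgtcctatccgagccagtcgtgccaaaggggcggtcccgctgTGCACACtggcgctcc
Mt2 (chr8:94172368-94172617, plus strand): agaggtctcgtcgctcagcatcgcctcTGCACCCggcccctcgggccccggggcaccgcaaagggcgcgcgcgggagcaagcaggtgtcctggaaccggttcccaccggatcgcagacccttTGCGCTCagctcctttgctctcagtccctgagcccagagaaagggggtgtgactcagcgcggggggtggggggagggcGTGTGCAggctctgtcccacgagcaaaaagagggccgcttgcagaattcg
Mt2 also held the antioxidant letters at base -79 from its start, within the lower-case stretch above.

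In Krt8-/- AECs the course of the members was followed with its own day 0 libraries. On day 1, 24 members were higher (23.7% of all genes) and 6 were lower (26.9%), with a median log2 change of 1.49. On day 3, 19 were higher (25.4%) and 14 lower (26.6%), with a median of 0.50, and on day 7, 15 were higher (28.6%) and 13 lower (29.9%), with a median of 0.09, which was 0.23 without batch 2. The members called in the same direction in both genotypes numbered 30 of the 32 called in Krt8+/+ on day 1, 31 of 33 on day 3 and 27 of 30 on day 7. Of all genes called in Krt8+/+, 81.7%, 85.1% and 89.4% were called in the same direction in Krt8-/- on these days, so that most genes had such a match. On the 3 days 0 members were called in opposite directions. Gsta3 and Cbr1 were called on day 1 in Krt8+/+ and not in Krt8-/-, which is no test of a difference. In these cells Slc7a11 was at 3.31, 4.15 and 3.25 CPM on day 0 and at 332, 268 and 367 CPM on day 1 (log2 change 6.502, SE 0.25, adjusted p = 2.27e-13). Nqo1 was at 8.28, 2.43 and 9.12 CPM on day 0, at 164, 193 and 150 CPM on day 1, and at 92.6, 65.4 and 203 CPM on day 7 (log2 change 4.16, SE 0.46 on day 7). Nfe2l2 went from 485, 509 and 449 CPM on day 0 to 159, 178 and 150 CPM on day 7 (log2 change -1.57, SE 0.14, adjusted p = 7.98e-09). These levels overlapped with those of Krt8+/+ on the same days.

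The direct comparison of the genotypes called 0 of 38 members on day 0, day 1, day 3 and day 7 by edgeR's quasi-likelihood test, where 0.0277%, 0.0166%, 0.0166% and 0.0166% of all genes were called. At an unadjusted p under 0.05 there were 2, 2, 1 and 2 members, where 2.65%, 3.54%, 2.50% and 1.41% of all genes had such a p. DESeq2 also called 0 members on each day, with 2, 2, 1 and 2 at an unadjusted p under 0.05. The genotype difference by day, a test of whether the difference changed over the 4 days, called 0 members (0.00554% of all genes, which is Krt8). At an unadjusted p under 0.05 there were 2 members, Gsta4 and Gsta3 (1.49% of all genes), and DESeq2 called 0 with 2 at that level.

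The intervals give the precision of these differences. For Nfe2l2 the log2 difference (Krt8-/- over Krt8+/+) on day 1 was 0.10, with a 95% interval from -0.18 to 0.38. For Slc7a11 on day 1 it was -0.03 (SE 0.19), for Srxn1 0.08 (SE 0.17), for Txnrd1 0.09 (SE 0.24), for Nqo1 0.32 (SE 0.39) and for Hmox1 -0.05 (SE 0.31). Sod3 had the widest intervals, for example from -1.82 to 1.35 on day 0, a range that holds differences of several fold.

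The member with the smallest p differed by day. Cbr3 on day 0 was at 4.71, 7.26 and 5.43 CPM in Krt8+/+ and at 7.27, 8.51 and 8.96 CPM in Krt8-/-, with the lowest Krt8-/- library just above the highest Krt8+/+ library (log2 difference 0.52, SE 0.19, adjusted p = 1). Gsto1 was the other member under an unadjusted 0.05 that day (38.02 against 58.0 CPM, log2 difference 0.61). The sum of club and ciliated cell markers, mostly Scgb1a1 as given above, was also higher in each Krt8-/- library of day 0. Its part was not tested.

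Keap1 on day 1 was at 62.4, 56.6 and 64.0 CPM in Krt8+/+ and at 72.7, 71.1 and 74.3 CPM in Krt8-/-, without overlap (log2 difference 0.25, SE 0.11, adjusted p = 1). On day 3 Cbr1 was at 34.0, 32.1 and 37.8 CPM in Krt8+/+ and at 42.8, 44.1 and 44.6 CPM in Krt8-/-, again without overlap (log2 difference 0.34, SE 0.12, adjusted p = 1). On day 7 Gsta4 was at 31.9, 39.0 and 54.4 CPM in Krt8+/+ and at 28.8, 27.7 and 30.7 CPM in Krt8-/- (log2 difference -0.52, SE 0.20, adjusted p = 1). Each of these 4 was picked for the smallest p of its day among the members, so separation of its groups is no test. None passed the threshold in any of the alternatives (smallest adjusted p 0.861, for Cbr1).

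**Figure D3:**
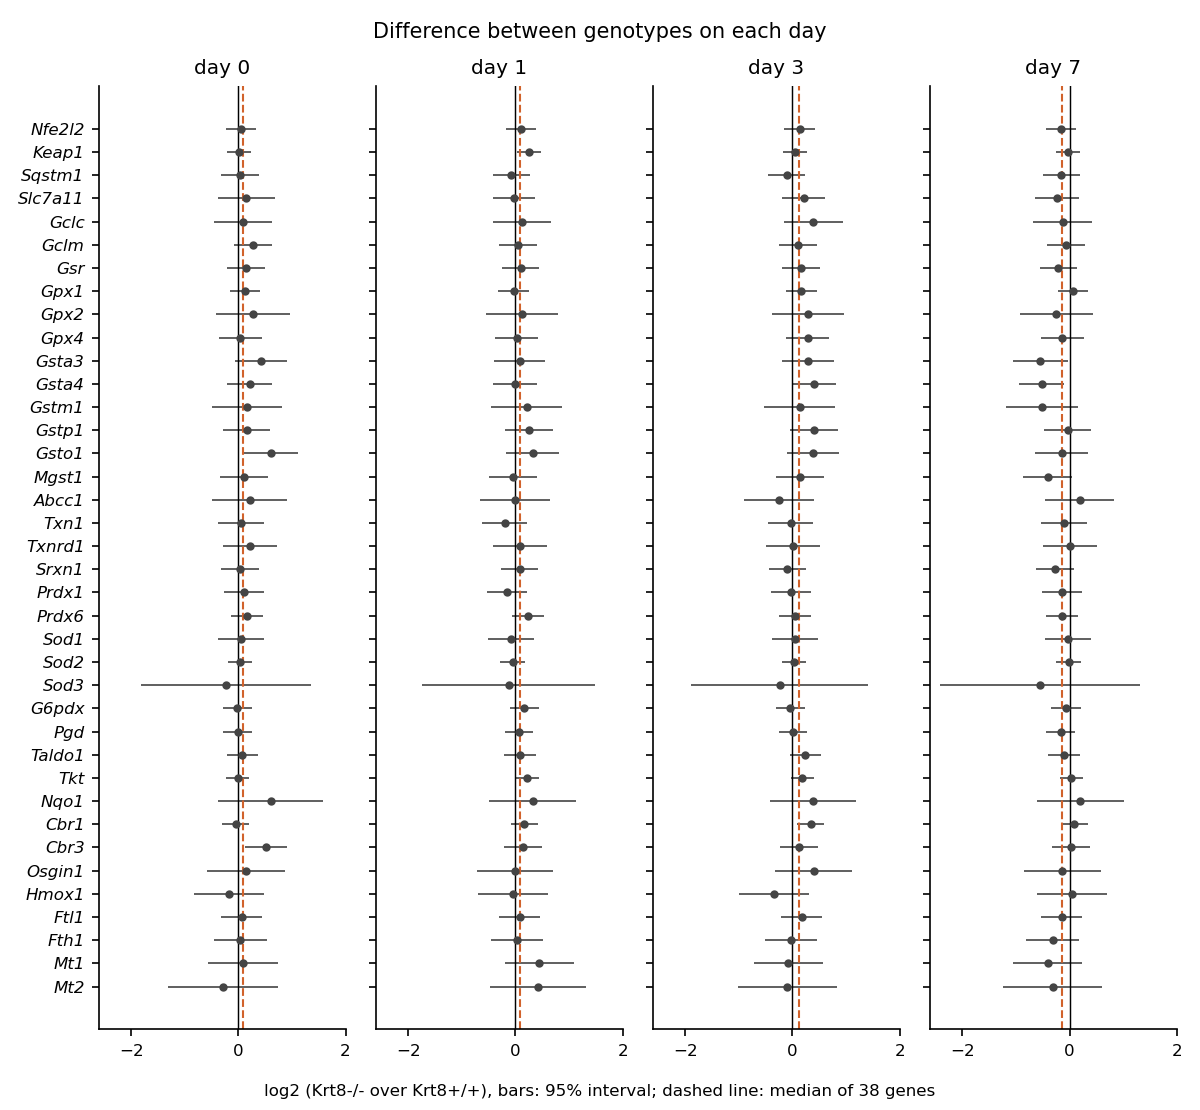
Log2 difference between genotypes (Krt8-/- over Krt8+/+) of each of the 38 genes on days 0, 1, 3 and 7, with 95% intervals from the edgeR fit (n = 3 libraries a group) and the median as a dashed line. The medians lie at 0.08, 0.08, 0.13 and -0.14, most intervals cross 0, and no gene passed the adjusted threshold.

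The median difference of the members was 0.08, 0.08, 0.13 and -0.14 on the 4 days, against -0.01 to 0.00 over all genes, and 31, 25, 27 and 8 of 38 members were positive, against 48%, 47.8%, 50.4% and 50.9% of all genes. The members share their libraries, so these counts are a description. On day 0, 19 of 38 were positive and the median was 0.0022 without batch 1, against 33 and 0.19 without batch 2. On day 3 the median was 0.04 without batch 2. On day 7, 7 to 10 members were positive and the median was -0.13 to -0.15 whichever batch was left out.

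**Figure D4:**
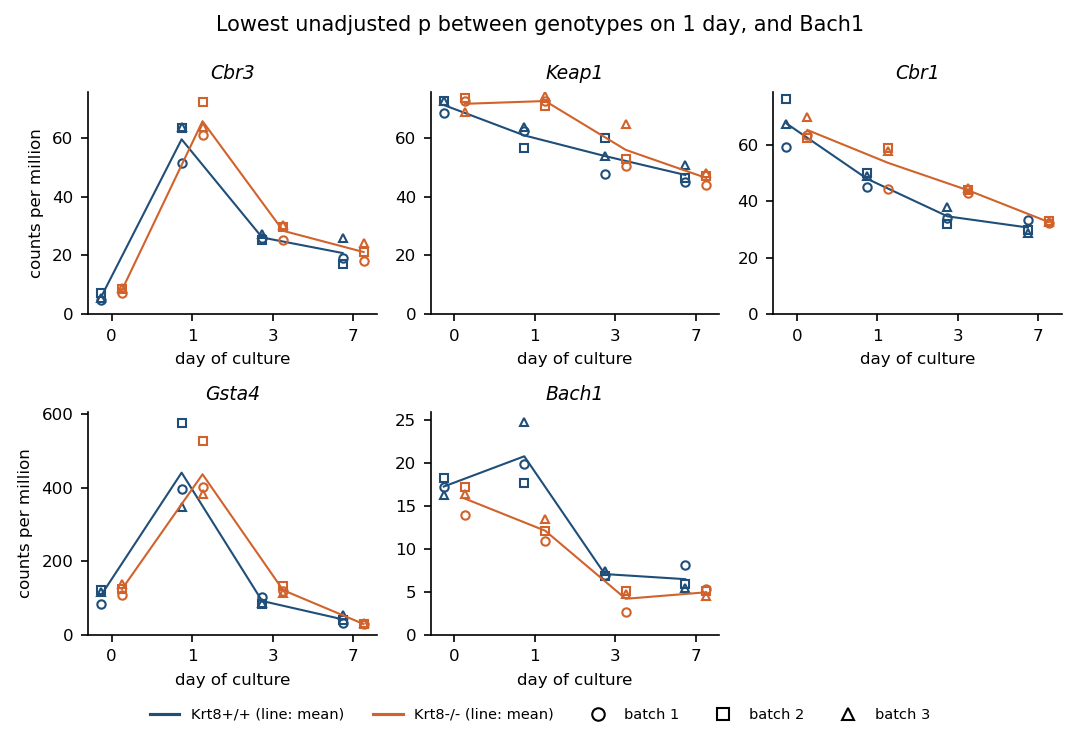
CPM against day of culture in every library (symbol shape: batch) for the genes with the lowest unadjusted p between genotypes on day 0 (Cbr3), day 1 (Keap1), day 3 (Cbr1) and day 7 (Gsta4), and for Bach1, with lines through the group means (n = 3). On day 1 the 3 blue Keap1 libraries (56.6 to 64.0 CPM) lie below the orange (71.1 to 74.3 CPM), and the 3 blue Bach1 libraries (17.6 to 24.7 CPM) lie above the orange (10.9 to 13.4 CPM). The genes were picked by their p, so the separation is a description.

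Of 75 other genes of these pathways, 73 were tested. In Krt8+/+ AECs 23 were higher (31.5%, against 26.2% of all genes) and 33 lower (45.2% against 28.5%) on day 1. On day 3, 15 were higher (20.5% against 26.1%) and 29 lower (39.7% against 27.8%), and on day 7, 19 were higher (26.0% against 28.6%) and 23 lower (31.5% against 30.2%), with medians of -0.45, -0.26 and -0.08, against 1.57, 0.46 and 0.26 for the members. On day 1, 11 of 15 thioredoxin and peroxiredoxin genes were lower and 3 higher, and 9 of 25 glutathione genes were higher and 10 lower. Gsta1, an alpha-class transferase, had the largest rise to day 7. It held 6, 0 and 0 reads on day 0 and was at 635, 1457 and 1176 CPM on day 1, 77.0, 81.9 and 109 CPM on day 3, and 19.1, 11.1 and 10.7 CPM on day 7. Its near copy Gm3776, 99.5% identical, held 56.4% as many counts, and Gsta2 17.8%, so the copies cannot be separated with certainty. Slc40a1, ferroportin, the iron exporter, was at 0.290 CPM on day 0 and rose to 12.7 CPM on day 7, and Chac1, which degrades glutathione, from 1.58 to 17.2 CPM. The largest falls were of Aox3, an aldehyde oxidase (589.5 to 0.545 CPM on day 7), and of the transferases Gstt1 (181 to 1.84 CPM) and Gstt3 (226 to 19.3 CPM).

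Between the genotypes 0 of these 73 genes were called on any day, with 0, 1, 3 and 2 at an unadjusted p under 0.05, where 2.65%, 3.54%, 2.50% and 1.41% of all genes had such a p. Bach1, a repressor that competes with NRF2 at antioxidant response elements, had the smallest p of the 73 genes on days 1 and 3. It was singled out after its values were seen. On day 1 it was at 19.8, 17.6 and 24.7 CPM in Krt8+/+ and at 10.9 to 13.4 CPM in Krt8-/- (log2 difference -0.78, SE 0.21, adjusted p = 0.956 in edgeR). On day 3 it was at 6.95, 6.80 and 7.38 CPM and at 2.67, 5.12 and 4.72 CPM (log2 difference -0.75, SE 0.22, adjusted p = 1). Its groups did not overlap on days 1, 3 and 7 (unadjusted p = 0.0014, 0.0025 and 0.09 in edgeR) and overlapped on day 0. Bach1 was picked by its p among 73 genes and the days share their batches, so its separation on days 1, 3 and 7 is no test. Hmox1, a target of BACH1, overlapped between the genotypes on each of the 4 days, and a link between the 2 genes was not tested.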

How the data were processed

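RNA-seq libraries were analysed from the gene-level table that the authors deposited. The authors deposited expected counts per gene, all whole numbers, made by trimming, alignment and quantification. The submitters' processing notes name cutadapt 2.3, STAR 2.7.8a, RSEM 1.3.3 and the build GRCm38, and the strand setting is not given in the sources used here. Of 55426 entries, 5 reporter entries (0 counts) were left out, so that 55421 genes remained.

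Counts were filtered (edgeR filterByExpr, minimum count 10, minimum total 15; 18046 genes), scaled by TMM and fitted in 1 quasi-likelihood model over 8 groups (16 residual degrees of freedom; R 4.3.3, edgeR 4.0.16) with Benjamini-Hochberg adjustment and a threshold of 0.05. Genotypes were compared on each day, days within a genotype, and the genotype difference across days by an F test. DESeq2 1.42.0 (with limma 3.58.1 loaded) served as an alternative, beside other scalings, no filter, batch as a block, leaving out each batch, fits of 2 groups, and, added after seeing the data, counts of near copies summed. The labels pair libraries by a shared batch date and replicate number, with correlations of deviations of -0.03 to 0.38 between days and 0.06 to 0.55 between genotypes. Replicates are batches, and counts of the pairs within groups differed by more than sampling noise.

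Coordinates and exon lengths are from GENCODE M21 (GRCm38), promoter windows from RefSeq (GRCm38.p6). The fit was tested on simulated data. The depth of 10184439 to 19483386 counts left each member with at least 15 counts in every library, and few counts widen the interval of the lowest genes. The members and lists were chosen with earlier results of these data known. Values in every library were given for Nfe2l2, Keap1, the most changed called member of each role on days 1 and 7, and the member with the smallest p between genotypes on each day. Other pathway genes were named as the 3 largest rises and falls by day 7 among those with at least 1 CPM in a group.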

Additional observations from a re-analysis of the deposited data

How the results depend on the processing

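Members called higher on days 1, 3 and 7 stayed within 1.5 times under each alternative, as did the 0 members called between genotypes. Without TMM factors, members called lower numbered 4 (day 1) and 8 (day 3) in Krt8+/+ and 2 (day 1) and 7 (day 3) in Krt8-/-, and the step from day 3 to day 7 gave 12 members, 11 of them lower. The counts of all genes under that scaling are given above. Fitting only Krt8+/+ days 0 and 1 gave 4 lower, where 48.2% of all genes were called in either direction. With batch as a replicate block, 2 members were higher from day 3 to day 7 and 0 were called between genotypes. From day 3 to day 7, 8.26% of all genes were then called in either direction, in place of 6.58%. Among single genes called without it, the pairing lost 1 call, Osgin1 on day 7 in Krt8+/+.

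The following changed direction on total counts alone, against day 0: Keap1 on day 3 (0.20 in Krt8+/+ and 0.21 in Krt8-/-), Gsta3 on day 3 in Krt8+/+ (0.0012), Prdx6 on day 3 in Krt8+/+ (0.13) and on day 7 in Krt8-/- (0.022), and Gpx4 on day 3 in Krt8-/- (0.053). These follow the shift of the median of all genes under that scaling.

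Leaving out each batch gave ranges, as total (higher, lower), against day 0. They were 31 to 33 (25 to 25, 6 to 8), 27 to 29 (16 to 19, 9 to 13) and 26 to 29 (14 to 17, 12 to 12) on days 1, 3 and 7 in Krt8+/+, and 29 to 31 (24 to 25, 5 to 6), 26 to 29 (16 to 19, 10 to 11) and 24 to 26 (12 to 14, 12 to 14) in Krt8-/-. Between days 1 and 3 they were 22 to 24 (1 to 1, 21 to 23), and between days 3 and 7 they were 3 to 3 (0 to 1, 2 to 3). Between genotypes and for the genotype difference by day they were 0 to 0. In day order against day 0, 39.2% to 45.4%, 41.8% to 46.7% and 47.7% to 51.9% of all genes were called in Krt8+/+. With every batch kept these shares were 54.7%, 54% and 58.8%. In Krt8-/- they were 36.3% to 41%, 39.9% to 43.7% and 47.8% to 50%, in place of 50.6%, 52% and 58.5%. Depth limits Slc7a11, Mt2 and Nqo1 on day 0, where counts were low, and the spread between batches limits Sod3.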
